A study of Mus musculus with 28 samples.

Results

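Amino acid transporters of the plasma membrane were examined in CD4+ T cells of the mouse small intestinal lamina propria, as a set of 9 genes (Slc7a5, Slc3a2, Slc1a5, Slc38a1, Slc38a2, Slc7a6, Slc7a1, Slc43a1 and Slc1a4) chosen by name from the 25124 genes of the deposited table. All 9 were found there, and 7 reached 1 TPM (the length-scaled share of a library's transcripts that a gene takes) in at least 6 of 28 libraries and were tested. Slc43a1 and Slc1a4 did not reach that level in any library. Live CD45+ CD90.2+ TCRb+ CD4+ cells had been sorted from T-bet-ZsGreen mice, which carry a fluorescent reporter of the transcription factor T-bet in every group, controls included. Some animals harboured intestinal microbes under specific-pathogen-free housing (SPF), and the rest were raised germ-free (GF), with no microbes. Each was given either aCD3, an antibody to the CD3 chains through which the T cell receptor signals, or a control antibody of matching isotype. Isotype-treated mice gave 6 SPF libraries (3 of each sex) and 10 GF libraries (5 of each sex). Mice given aCD3 gave 6 SPF libraries (3 of each sex) and 6 GF libraries, of which 1 was from a female. Age, dose and the interval from injection to sampling were not used here. Libraries are named by group, sex letter and number, and whether each came from a separate animal is not stated, so p-values measure the spread between libraries only. The sorted population is a mixture of CD4 T cell states, so fewer cells of a type and less RNA per cell cannot be told apart.

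Activated T cells import large amounts of amino acids, and the transporters fall into a few exchange systems. Slc7a5 (LAT1) and Slc7a6 (y+LAT2) are light chains that reach the cell surface only when paired with the heavy chain Slc3a2 (CD98). The Slc7a5 pair exchanges intracellular glutamine for leucine and other large neutral amino acids, and leucine taken up in this way feeds the kinase complex mTORC1, which sets protein synthesis and growth. Slc1a5 (ASCT2), Slc38a1 (SNAT1) and Slc38a2 (SNAT2) carry glutamine and other small neutral amino acids, Slc7a1 (CAT1) carries arginine and lysine, Slc43a1 (LAT3) is a facilitative carrier of leucine and related amino acids, and Slc1a4 (ASCT1) carries alanine, serine and cysteine. In naive T cells that receive a strong receptor signal in culture, Slc7a5 and Slc3a2 are known to be induced over hours to days, with Myc and ATF4 among the factors known to act on transporter genes.

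Each library held between 6765528 and 17860683 reads in genes, and the 7 tested members had at least 200 reads in every library. CD4 T cell identity was present throughout: Cd3e lay between 273.6 and 430.5 TPM and Cd4 between 165.8 and 274.9 TPM. A few transcripts took a large and unequal share of the total. Histone genes held 4.05% to 7.04% of TPM in SPF isotype and 23.8% to 26.8% in SPF aCD3, and the ribosomal precursor Rn45s held 22.9% in SPF isotype F3 against 14.9% or less in the other 5 libraries of that group. TPM is a share of the library's total, and the median gene tested moved by -0.35 on the log2 scale between SPF isotype and SPF aCD3, by -0.15 between GF isotype and GF aCD3, and by 0.34 between SPF aCD3 and GF aCD3. Scaling each library by the median of its gene ratios brings these medians to -0.0033, -0.0049 and -0.0027, so the main changes are given both as deposited and after that scaling. The libraries labelled GF aCD3 were not alike. The co-inhibitory receptor Lag3 stood at 452, 498 and 527 TPM in M2, M1 and M5. In F1, M4 and M3 it stood at 9.59, 12.3 and 17.0 TPM, against 5.41 to 18.5 TPM in GF isotype. Since F1, M3 and M4 resemble GF isotype in this gene, whether these animals received aCD3, or received it and did not respond, cannot be told apart, and GF aCD3 below means the libraries that carry that label. M3 also held 932.8 TPM summed over 15 pancreatic acinar markers, 14 of them past the level filter. Other GF libraries held them as well, with a GF aCD3 median of 55.7 TPM and a GF isotype highest sum of 130.6 TPM (F3). The levels of the main members in GF aCD3 are therefore given library by library as well.

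The 4 members that fell in SPF mice after aCD3 belong to 3 of these systems: the CD98 heavy chain Slc3a2, the glutamine carriers Slc38a1 and Slc38a2, and the arginine carrier Slc7a1. Their groups did not overlap, which was also so for 33.4% of all genes tested, with every aCD3 library below every isotype library. With each library's TPM divided by its size factor, the groups of Slc38a1 and Slc7a1 still did not overlap, and those of Slc3a2 (145.8 to 180.7 in aCD3, 162.6 to 184.3 in isotype) and Slc38a2 (97.2 to 134.3 and 103.5 to 153.1) did. By limma with Benjamini-Hochberg adjustment over all 12182 genes tested, 4 of 7 members were lower and 0 were higher, where 50.7% of all genes tested were lower and 14.2% were higher. After scaling by median of ratios, 2 of 7 were lower (Slc38a1 and Slc7a1) and 1 was higher (Slc7a6), against 29.2% of genes lower and 30.8% higher. The member count is thus close to what all genes gave, and the values of single members carry the description.

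**Figure D1:**
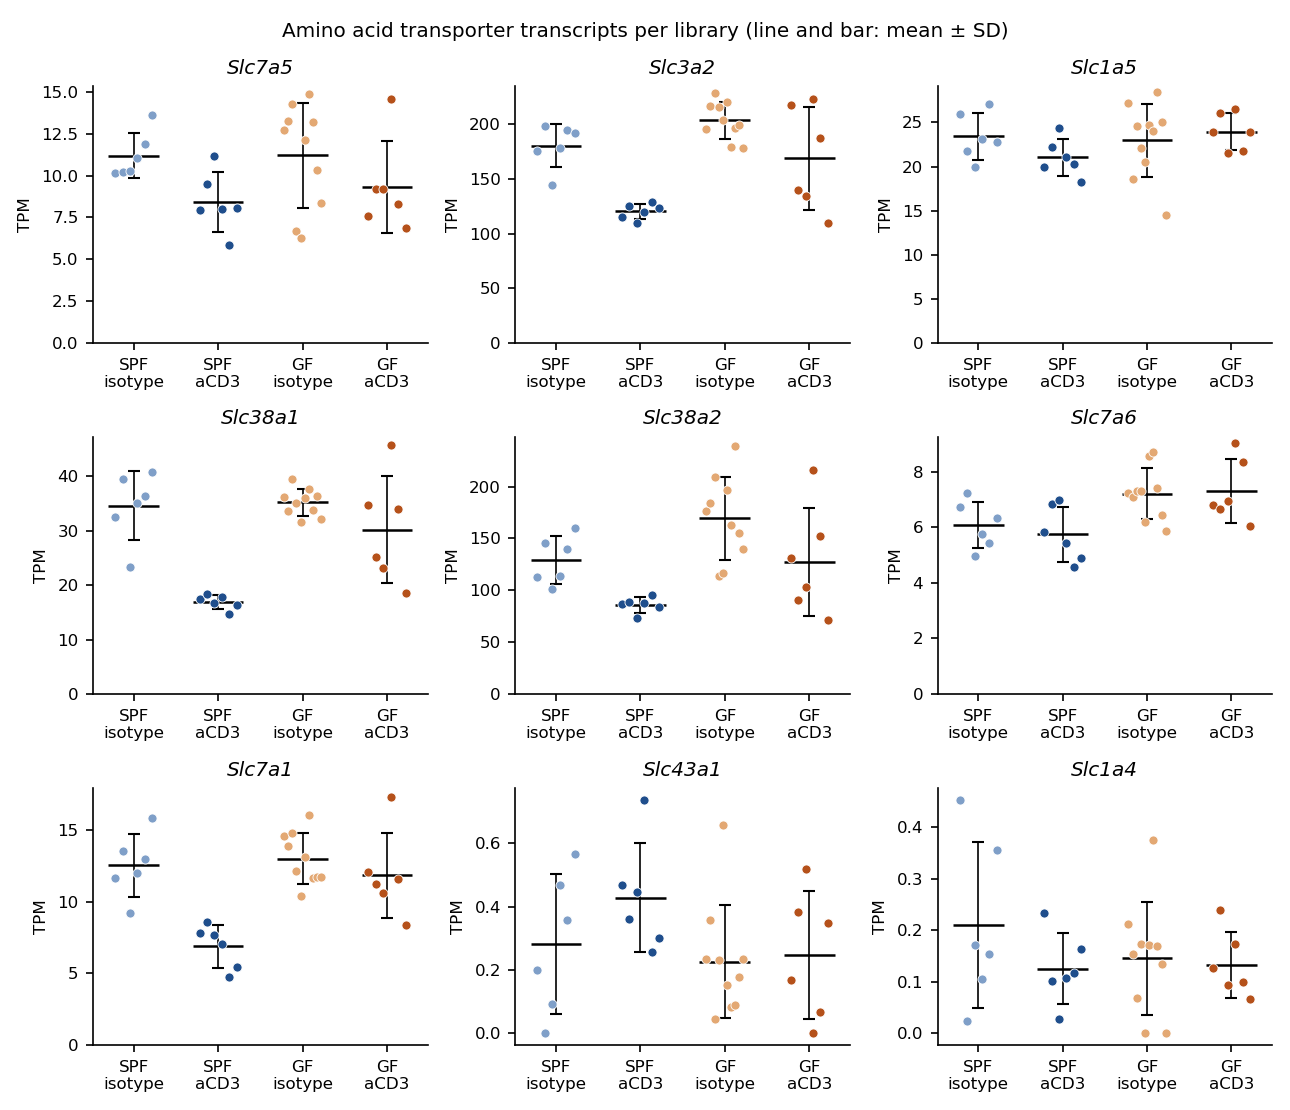
TPM of each of the 9 transporters in every library (points), with the group mean and SD (line and bar), with the 6 SPF isotype and 6 SPF aCD3 libraries before the 10 GF isotype and 6 GF aCD3 libraries. In the panels of Slc3a2, Slc38a1, Slc38a2 and Slc7a1 all SPF aCD3 points lie below all SPF isotype points, while the GF aCD3 points are spread widely; Slc43a1 and Slc1a4 stay below 1 TPM.

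The start of a gene is where factors such as Myc and ATF4 can act, and 3 of the 4 members that fell in SPF have RefSeq promoter windows here (GRCm38.p6). The 100 bases before the start of each are shown 5′ to 3′ on the gene's strand, because these genes moved in the same direction as deposited. After scaling, only Slc7a1 of these 3 kept its call. Capitals mark GGGCGG or its reverse complement, the letters of a GC box.
Slc3a2, chr19:8713898-8713997, minus strand: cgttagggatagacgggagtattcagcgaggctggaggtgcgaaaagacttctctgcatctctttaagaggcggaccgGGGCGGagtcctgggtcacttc
Slc38a2, chr15:96699729-96699828, minus strand: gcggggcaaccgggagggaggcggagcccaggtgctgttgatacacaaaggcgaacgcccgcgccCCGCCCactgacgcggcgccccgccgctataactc
Slc7a1, chr5:148399905-148400004, minus strand: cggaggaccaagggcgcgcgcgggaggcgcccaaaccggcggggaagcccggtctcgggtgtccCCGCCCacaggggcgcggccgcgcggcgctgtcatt
Over the 250 bases before the start, 8 windows of 6 members were searched on both strands. The E-box CACGTG was found in 1 of 8, that of Slc43a1 at 64 bases before the start its window is built on, which lies upstream of the start of the transcript in the table, against 6.02% of 32851 windows of all genes. The letters TGATGNAAN of an ATF4-type response element were found in 0 of 8, against 3.44% of all windows, which says only that these letters are not in these windows. GGGCGG, added after the values had been seen, was in 6 of 8 member windows and in 32.7% of all windows. A match is a description of letters and not a binding site.

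Slc3a2, the heavy chain that both light chains need, lies on mm10 chromosome 19, 8706882 to 8713897, minus strand (NM_008577). Its levels in SPF isotype ran from 144 to 199 TPM with a median of 185, and those in SPF aCD3 from 110 to 129 TPM with a median of 122. No SPF aCD3 library reached the lowest SPF isotype library. The log2 fold change was -0.57 ± 0.13 (SE), adjusted p = 0.000429 (limma), or -0.23 relative to the median gene, and after scaling it was -0.15 with adjusted p = 0.0976. Limma-voom lost the call as well (-0.15, adjusted p = 0.1003), while it held without Rn45s and histone genes (-0.30, adjusted p = 0.0106) and under quantile normalization (-0.43, adjusted p = 0.00162). In GF isotype the range was 178 to 229 TPM with a median of 202, and in GF aCD3 it was 109 to 223 TPM with a median of 164.

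Slc7a5, the leucine exchanger paired with Slc3a2, lies on chromosome 8, 121881146 to 121907686, minus strand (NM_011404). In the annotation the opposite strand of its whole span carries Gm20388, which is not in the table, and since the use of strand in counting is not given in the sources used here, reads of the 2 genes could not be told apart. Levels were 10.2 to 13.6 TPM (median 10.7) in SPF isotype and 5.86 to 11.1 TPM (median 8.04) in SPF aCD3. The groups overlapped through SPF aCD3 F3, the highest of its group, and the other 5 SPF aCD3 libraries lay below all SPF isotype libraries. The log2 fold change of -0.39 ± 0.19 did not pass the test (limma, adjusted p = 0.0722), although it did without SPF aCD3 F3, at -0.48 with adjusted p = 0.0346. It also passed with array weights (adjusted p = 0.0259) and with a term for the GF number block (adjusted p = 0.0118). After scaling, the difference was -0.0054 with adjusted p = 0.982.

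Slc7a6, the other light chain, exchanges arginine or lysine against neutral amino acids and lies on chromosome 8, 106168921 to 106198714, plus strand (NM_001357381). It ran from 4.98 to 7.24 TPM (median 6.05) in SPF isotype and from 4.58 to 6.98 TPM (median 5.63) in SPF aCD3. These ranges overlap almost entirely. The log2 fold change was -0.07 ± 0.11 (limma, adjusted p = 0.577), and scaling turned its sign to 0.29 ± 0.10 with adjusted p = 0.0105. In GF isotype its range was 5.86 to 8.72 TPM (median 7.27), and in GF aCD3 6.05 to 9.03 TPM (median 6.89).

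Slc7a1, which carries arginine and lysine, lies on chromosome 5, 148327410 to 148399904, minus strand (NM_007513). Its TPM was 9.19 to 15.8 (median 12.5) in SPF isotype and 4.72 to 8.59 (median 7.36) in SPF aCD3, with no overlap. The fall of 0.79 ± 0.14 on the log2 scale passed the test (limma log2 fold change -0.79, adjusted p = 5.97e-05), as did that of -0.41 ± 0.12 after scaling (adjusted p = 0.00359). Within SPF aCD3 the males M2 and M3 were lowest, at 4.72 and 5.45 TPM, and the other 4 libraries lay between 7.02 and 8.59 TPM. GF isotype spanned 10.4 to 16.0 TPM (median 12.6) and GF aCD3 8.35 to 17.3 TPM (median 11.4).

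Slc38a1, which takes up glutamine together with sodium, had the lowest fold change of the 7 tested members in SPF. It lies on chromosome 15, 96571418 to 96642913, minus strand (NM_001166458), in the neighbourhood of Slc38a2 on the same strand at 96687392 to 96699728 (NM_001355633). SPF isotype libraries held 23.3 to 40.8 TPM (median 35.7; mean 34.6 ± 6.30, SD) and SPF aCD3 libraries 14.6 to 18.4 TPM (median 17.0; mean 16.9 ± 1.35). The lowest SPF isotype value came from F3, the library with the most Rn45s, and it still lay above all SPF aCD3 libraries. The log2 fold change was -0.97 ± 0.15 (limma, adjusted p = 1.04e-05), or -0.63 relative to the median gene, and -0.57 ± 0.09 after scaling (adjusted p = 1.02e-05). In GF isotype it kept a narrow range of 31.6 to 39.4 TPM (median 35.5), and in GF aCD3 it spread from 18.6 to 45.6 TPM (median 29.5).

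Slc38a2, a related sodium-coupled carrier known for its response to amino acid shortage, ran from 101 to 160 TPM (median 127) in SPF isotype and from 73.1 to 95.7 TPM (median 87.7) in SPF aCD3. The groups did not overlap. Its log2 fold change of -0.56 ± 0.20 passed the test (limma, adjusted p = 0.0172), but after scaling the value was -0.14 ± 0.17 with adjusted p = 0.475, and without Rn45s and histone genes it was -0.29 with adjusted p = 0.169. GF isotype libraries ranged more widely, from 114 to 239 TPM (median 170), and GF aCD3 libraries from 71.3 to 216 TPM (median 117).

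Slc1a5, an exchanger of glutamine and other small neutral amino acids, lies on chromosome 7, 16781346 to 16798274, plus strand (NM_009201). SPF isotype ranged from 20.0 to 27.1 TPM (median 23.0) and SPF aCD3 from 18.2 to 24.4 TPM (median 20.7), so that 4 of 6 SPF aCD3 libraries lay within the isotype range. The log2 fold change was -0.15 ± 0.12 (limma, adjusted p = 0.278), and after scaling its sign turned, to 0.26 ± 0.13 with adjusted p = 0.0991. Its medians in GF isotype and GF aCD3 were 24.3 and 23.9 TPM, with ranges of 14.5 to 28.4 and 21.5 to 26.5 TPM. It had the smallest SD of log2(TPM + 1) over the 28 libraries among the 7 tested members as deposited, 0.20, against 0.49 for Slc38a2. After scaling its SD was 0.28, that of Slc38a2 0.32, and Slc3a2 had the smallest at 0.14.

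Slc43a1 (chromosome 2, 84840626 to 84863586, plus strand, NM_001083809) and Slc1a4 (chromosome 11, 20302180 to 20332713, minus strand, NM_018861) were close to the limit of these libraries. Slc43a1 had 0 to 31 reads per library with a median of 10.5, and Slc1a4 had 0 to 24 reads with a median of 7. Each was at 0 in 2 libraries, which allows a level of up to 3 reads, worth between 0.0536 and 0.141 TPM for Slc43a1 and between 0.0403 and 0.106 TPM for Slc1a4, for counting error only. Slc43a1 was at 0.258 to 0.737 TPM (median 0.403) in SPF aCD3 and at 0 to 0.567 TPM (median 0.279) in SPF isotype, so the groups overlapped. Neither gene entered the main test.

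The order of the 4 group means showed which neighbours were separated. For Slc3a2, Slc38a1, Slc38a2 and Slc7a1 the order as deposited was GF isotype, SPF isotype, GF aCD3 and SPF aCD3, from high to low. GF isotype and SPF isotype did not differ beyond their spread by the test, and SPF isotype and GF aCD3 were not compared. After scaling, GF isotype differed from SPF isotype by -0.11 for Slc38a1 and -0.09 for Slc7a1, so their order changed. GF aCD3 and SPF aCD3 differed as deposited for all but Slc38a2 (log2 difference 0.43 ± 0.21, limma, adjusted p = 0.0797). Slc38a2 was called without GF aCD3 M1 or M5 (adjusted p down to 0.0137), without the sex term (0.0495) and with a term for the GF number block (0.0167). Slc3a2 lost its call after scaling (0.05, adjusted p = 0.684), by quantile normalization (0.27, adjusted p = 0.0735) and by limma-voom (0.05, adjusted p = 0.674). Slc7a5 had the same order as deposited, with means of 11.2 ± 3.14, 11.2 ± 1.35, 9.30 ± 2.74 and 8.42 ± 1.77 TPM (SD). No pair compared passed the test for Slc7a5 in the main fit. With a term for the GF number block, GF aCD3 was higher than SPF aCD3 by 0.41 (limma, adjusted p = 0.0284) in place of 0.09. That difference turned to -0.28 after scaling, -0.29 by quantile normalization and -0.31 by limma-voom, none of them past the test. For Slc7a6 and Slc1a5, GF aCD3 had the highest mean and SPF aCD3 the lowest as deposited. These 2 groups differed by the test for Slc7a6 alone, on that scale. After scaling, the difference of GF aCD3 from SPF aCD3 turned to -0.03 for Slc7a6 and -0.21 for Slc1a5. SPF aCD3 then lay above SPF isotype, by 0.29 for Slc7a6 and 0.26 for Slc1a5, so SPF aCD3 was no longer the lowest. Levels of different genes were not set against each other, since TPM was computed per genomic span with introns in nearly all rows and not per mature transcript.

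**Figure D2:**
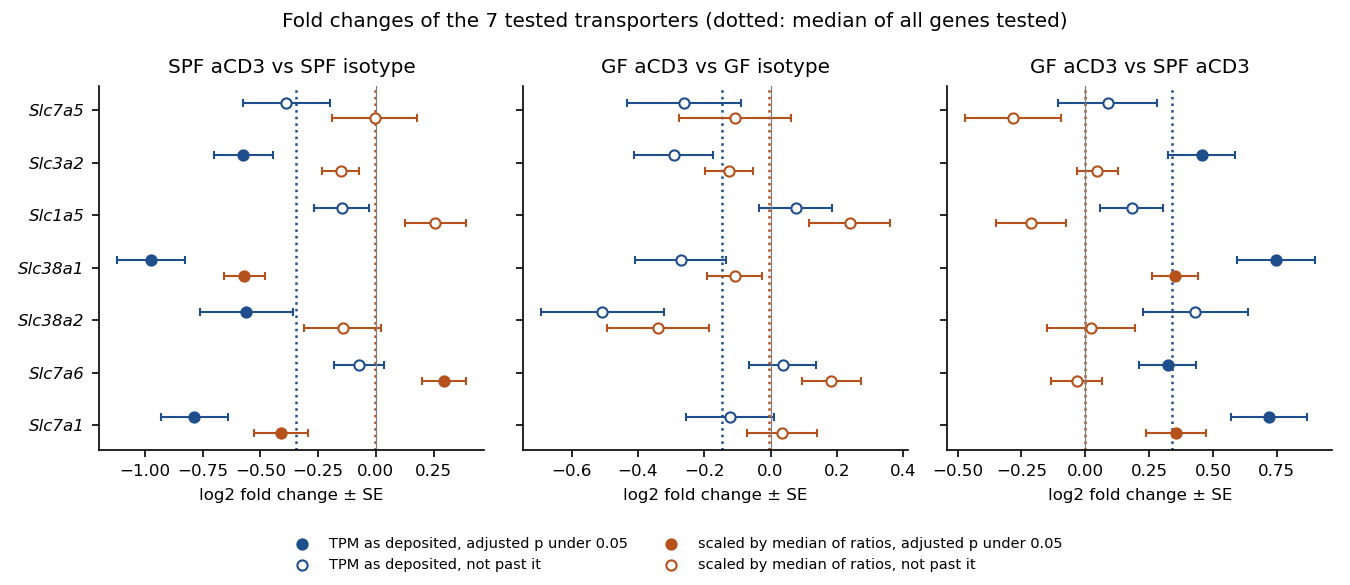
Log2 fold change ± SE (x axis) of the 7 tested transporters in 3 comparisons, as deposited (blue) and after scaling by median of ratios (orange); filled points passed an adjusted p of 0.05 and dotted lines mark the median of all genes tested. In SPF mice Slc38a1 (-0.97 and -0.57) and Slc7a1 (-0.79 and -0.41) lie below the median gene on both scales, while Slc7a6 and Slc1a5 turn from below 0 to above 0 with the scaling; Slc7a1 in the GF comparison, and Slc7a5, Slc1a5 and Slc7a6 between GF aCD3 and SPF aCD3, also change sign.

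Ratios of 2 members within a library do not depend on the library's total. The ratio of Slc38a1 to Slc38a2 was lower in 6 of 6 SPF aCD3 libraries than in every SPF isotype library, with log2 ratios of -2.71 to -2.14 against -2.12 to -1.70, a difference of -0.45 between means. In GF the same ratio differed by 0.19 after aCD3, in the other direction and with 0 of 6 libraries below all GF isotype libraries. Without aCD3 it was lower in GF isotype than in SPF isotype by -0.33, with 6 of 10 libraries below all SPF isotype libraries. That of Slc38a1 to Slc1a5 was -0.55 to -0.16 in SPF aCD3 and 0.22 to 0.86 in SPF isotype, a difference of -0.86 with no overlap, and it differed by -0.36 after aCD3 in GF. The light chain Slc7a6 gained on its heavy chain Slc3a2 by 0.49, from -5.16 to -4.71 in SPF isotype to -4.81 to -3.97 in SPF aCD3, and 5 of 6 aCD3 libraries lay above all isotype libraries. The ratio of Slc7a5 to Slc3a2 differed by 0.15, with 2 SPF aCD3 libraries above and 1 below all isotype libraries. These ratios were chosen after the values had been seen and are given without a test. Where the groups do not overlap, they show unequal change of the 2 genes and not which of them moved.

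**Figure D3:**
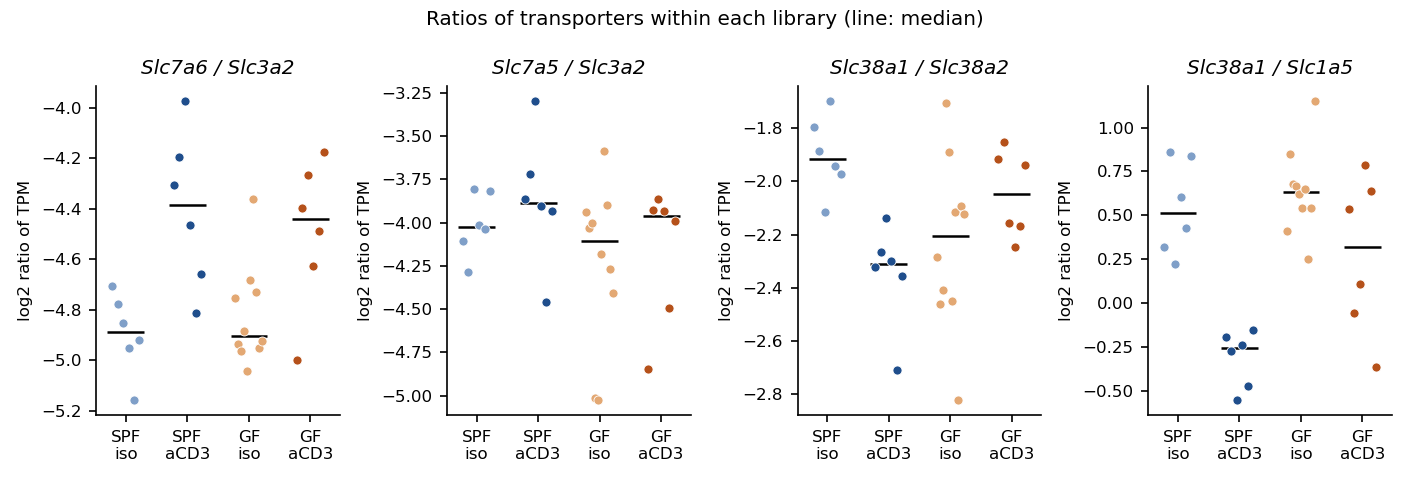
Log2 ratio of TPM between pairs of transporters within each library (points) by group, with the group median (line). Both ratios with Slc38a1 on top are lower in every SPF aCD3 library than in every SPF isotype library, and the ratio of Slc7a6 to Slc3a2 is higher in 5 of 6 SPF aCD3 libraries.

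Several marker lists of other cell types differed between the SPF groups. The summed level of 8 B and plasma cell markers, of which 3 passed the level filter, was 96.5 to 272.9 TPM in SPF isotype and 2.95 to 9.16 TPM in SPF aCD3, and Jchain alone held 87.4 to 259.3 TPM and 0.128 to 1.55 TPM. The sum of 7 myeloid markers, 2 of them past the filter, went the other way, from 2.84 to 12.7 TPM to 57.7 to 106 TPM, with Lyz2 at most 1.36 TPM in either group. Stromal markers, 3 of 7 past the filter, summed to 4.69 to 42.7 TPM in SPF isotype and 0.764 to 2.83 TPM in SPF aCD3, where Col1a2 was at 0 in all 6 libraries. Erythroid markers, 1 of 5 past the filter, summed to 2.29 to 10.2 TPM in SPF isotype and 0.716 to 1.28 TPM in SPF aCD3, where 4 of the 5 were at 0 in all libraries. CD8 markers, both past the filter, summed to 5.68 to 13.5 TPM in SPF isotype and 9.75 to 23.8 TPM in SPF aCD3, and epithelial markers, 8 of 9 past the filter, to 7.23 to 24.1 and 5.07 to 12.3 TPM, with overlap in both lists. Plasma cells also express Slc3a2 and other transporters of the set. The sums do not show which cells held the RNA, and the part of other cells in the transporter differences was not tested.

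The wider machinery of amino acid supply in SPF mice was read from lists of genes, each with its count beside the share of all genes given above. Of 22 other plasma membrane transporters, 5 were expressed enough to test: 4 were lower and 0 higher, or 2 lower and 1 higher after scaling. The list median was -0.34 as deposited, beside -0.35 for all genes tested. Slc16a10, a carrier of aromatic amino acids, fell from 6.74 ± 2.12 to 1.42 ± 0.400 TPM (log2 fold change -1.65, limma, adjusted p = 0.000411; -1.38 after scaling). The taurine transporter Slc6a6 fell from 9.15 ± 1.11 to 5.08 ± 0.396 TPM (-0.73, adjusted p = 5.68e-05; -0.37 after scaling). Slc43a2, a relative of Slc43a1, was lower as deposited (-0.34, adjusted p = 0.0277) and had the opposite sign after scaling (0.04, adjusted p = 0.723). The cystine exchanger Slc7a11 did not exceed 0.208 TPM in any library.

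Lysosomal carriers, which return amino acids from the lysosome to the cytosol, were represented by 7 tested genes of 10 listed. Here 5 were lower and 1 higher, or 3 lower and 1 higher after scaling, with a list median of -0.50 as deposited and -0.25 after scaling, beside -0.35 and -0.0033 for all genes. The proton-coupled carrier Slc36a1 fell from 8.21 ± 1.14 to 3.81 ± 0.518 TPM (log2 fold change -0.93, limma, adjusted p = 0.000288; -0.59 after scaling). Slc38a7, which exports glutamine and asparagine from lysosomes, fell from 2.97 ± 0.483 to 1.37 ± 0.407 TPM (-0.75, adjusted p = 0.000153; -0.49 after scaling). The peptide and histidine carrier Slc15a4 fell as well (-0.67 and -0.33), whereas its relative Slc15a3 rose from 2.82 ± 1.13 to 5.17 ± 1.97 TPM (0.69, adjusted p = 0.00754; 1.04 after scaling).

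Among mTORC1 and its amino acid sensors, 36 of 41 listed genes were tested; 21 were lower and 2 higher, or 13 lower and 11 higher after scaling, with medians of -0.39 and -0.05. Sesn1, of the sestrins that hold mTORC1 back, fell from 18.1 ± 3.42 to 6.24 ± 1.40 TPM (log2 fold change -1.41, limma, adjusted p = 9.51e-06; -1.03 after scaling). Rptor, the raptor subunit of mTORC1, fell from 4.38 ± 1.05 to 1.40 ± 0.139 TPM (-1.14; -0.87 after scaling), and Rheb, the GTPase that activates it, from 15.5 ± 1.85 to 7.51 ± 0.710 TPM (-0.95; -0.57 after scaling). Lamtor5, of the Ragulator complex on lysosomes, rose from 18.8 ± 2.26 to 28.3 ± 2.10 TPM (0.57; 0.98 after scaling). Tbc1d7, a subunit of the TSC complex that restrains Rheb, rose at a low level from 0.846 ± 0.393 to 1.32 ± 0.238 TPM (0.35; 0.60 after scaling). The list holds activators and restraining subunits on both sides of its changes.

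The enzymes that use amino acids split. Of 30 tested genes in the list of glutamine and branched-chain amino acid use and of serine, proline and polyamine synthesis, 14 were higher and 9 lower, or 17 higher and 9 lower after scaling, with a median of 0.17 beside -0.35 for all genes. Psat1, of serine synthesis, rose from 7.15 ± 1.35 to 20.7 ± 2.55 TPM (log2 fold change 1.42, limma, adjusted p = 9.51e-06; 1.82 after scaling). Srm, which makes spermidine, rose from 12.2 ± 5.29 to 25.6 ± 8.54 TPM (1.15; 1.55 after scaling), and Bcat1, the cytosolic transaminase of branched-chain amino acids, from 0.168 ± 0.120 to 1.29 ± 0.481 TPM (0.95; 1.17 after scaling). The transaminase Got1 fell from 95.6 ± 24.9 to 25.2 ± 3.09 TPM (-1.84; -1.43 after scaling), and Mat2a, which makes S-adenosylmethionine, fell from 151 ± 18.7 to 54.2 ± 9.82 TPM (-1.48; -1.06 after scaling). Each of these 5 changes had an adjusted p of 0.00275 or less as deposited.

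Of the regulators known to act on transporter genes, 15 of 17 listed genes were tested, and 9 were lower and 3 higher, or 9 lower and 6 higher after scaling; the medians were -0.77 and -0.48. Atf3, of the stress response, fell from 15.1 ± 3.64 to 2.56 ± 0.601 TPM (log2 fold change -2.16, limma, adjusted p = 1.24e-05; -1.84 after scaling). Ppp1r15a, which reverses the stress block on translation, fell from 613 ± 97.5 to 206 ± 26.6 TPM (-1.56; -1.14 after scaling), and Nfe2l2, a regulator of antioxidant genes, from 37.1 ± 4.99 to 13.7 ± 0.896 TPM (-1.37; -0.97 after scaling). Hif1a, of the hypoxia response, rose from 96.9 ± 11.5 to 207 ± 22.2 TPM (1.09, adjusted p = 8.79e-06; 1.51 after scaling). Mxi1, a partner of Max that opposes Myc, rose by 0.55 (0.95 after scaling), and Eif2s1, the target of the stress kinases of translation, by 0.43 (0.84 after scaling).

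In GF mice, 0 of 7 members passed the test after aCD3, where 7.08% of all genes tested did. Unadjusted p-values under 0.05 were found for 2 of them, Slc38a2 (log2 fold change -0.51 ± 0.19, p = 0.0112, limma adjusted p = 0.0686) and Slc3a2 (-0.29 ± 0.12, p = 0.0203, adjusted p = 0.0867). Slc38a1 differed by -0.27 ± 0.14 (adjusted p = 0.153), Slc7a5 by -0.26 ± 0.17 (adjusted p = 0.271) and Slc7a1 by -0.12 ± 0.13 (adjusted p = 0.518). Slc1a5 and Slc7a6 differed by 0.08 and 0.04, on the other side of 0. After scaling, the values were -0.34 for Slc38a2, -0.12 for Slc3a2, -0.11 for Slc38a1 and Slc7a5, 0.03 for Slc7a1, 0.24 for Slc1a5 and 0.18 for Slc7a6, none of them past the test. Limma-voom on the recovered reads also called 0 of 7. Leaving out GF aCD3 M3, the library with the highest acinar marker sum, gave 3 calls (Slc3a2, Slc38a1 and Slc38a2, the last at -0.67 with limma adjusted p = 0.00834). Leaving out F1 or M4 gave 2 (Slc3a2 and Slc38a2).

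The wide spread in GF aCD3 is given library by library, with no test made of it. Slc3a2 was at 109, 140 and 134 TPM in M5, M1 and M2, the libraries with high Lag3, and at 188, 218 and 223 TPM in M4, F1 and M3, where GF isotype held 178 to 229 TPM. Slc38a1 was at 18.6, 25.1 and 23.2 TPM in the former and at 33.9, 34.6 and 45.6 TPM in the latter, beside 31.6 to 39.4 TPM in GF isotype. Slc38a2 was at 71.3, 90.5 and 103 TPM against 152, 131 and 216 TPM. For these 3 genes, M1, M2 and M5 held the lowest levels of the group as deposited. The spread narrowed with each library's TPM divided by its size factor: Slc3a2 then stood at 132.4 to 157.1 in M1, M2 and M5 and at 161.7 to 191.8 in the others, beside 156.3 to 204.0 in GF isotype. Slc38a2 stood at 86.3 to 116.1 and at 115.3 to 175.3 on that scale, beside 93.3 to 218.8 in GF isotype. Slc38a1 stood at 22.5 to 28.1 and at 29.2 to 36.9, beside 27.4 to 33.5. Histone genes took at least 23.1% of TPM in M1, M2 and M5 and 5.39% to 7.46% in F1, M3 and M4 (their part in the transporter levels was not tested).

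**Figure D4:**
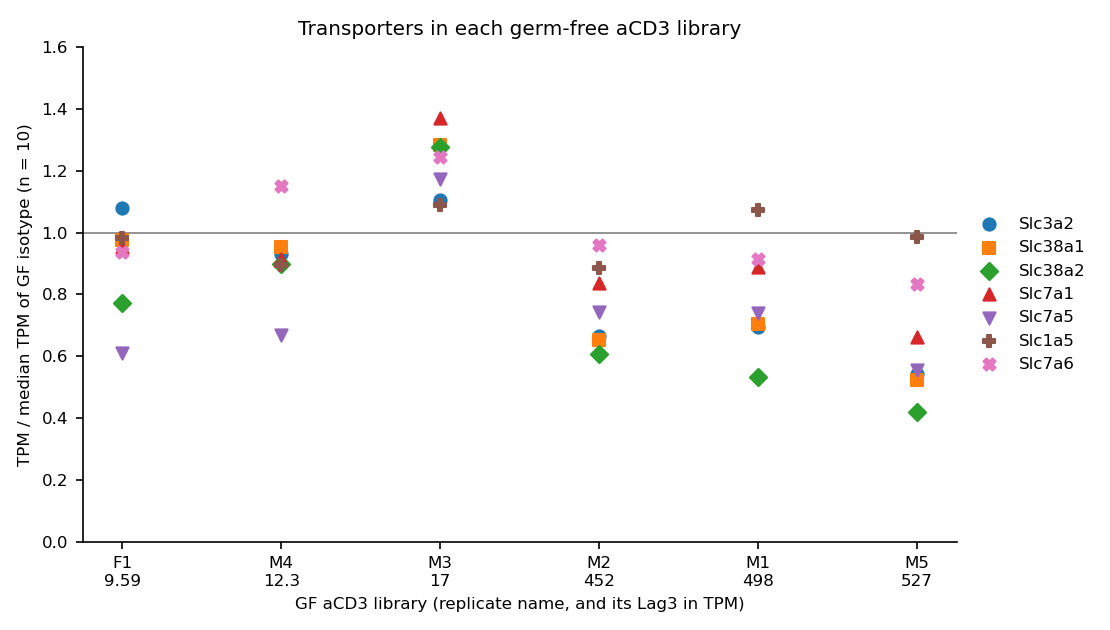
TPM of 7 transporters in each GF aCD3 library divided by the median of the 10 GF isotype libraries (y axis), with libraries placed in order of their Lag3 level (x axis, TPM under the name). Slc3a2, Slc38a1 and Slc38a2 lie lowest in M2, M1 and M5, the libraries with 452 to 527 TPM of Lag3, and M3 lies above 1 for all 7 genes.

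Without aCD3, 0 of 7 members were called between GF isotype and SPF isotype, where 7.17% of all genes tested were. Unadjusted p-values under 0.05 were found for 2, Slc38a2 (log2 difference 0.38 ± 0.18, p = 0.0466, limma adjusted p = 0.189) and Slc7a6 (0.21 ± 0.10, p = 0.0361, adjusted p = 0.166). After scaling they were 0.22 (p = 0.155) and 0.08 (p = 0.376). Array weights called Slc38a2 (0.40, adjusted p = 0.0465). The other 5 lay between -0.04 and 0.18, and limma-voom called 0 of 7. SPF and GF libraries carry separate number blocks in their column names, 1 to 12 for SPF and 25 to 33 and 48 to 54 for GF, which may mark separate preparations, so colonisation and block cannot be told apart.

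The 2 number blocks of GF isotype differed in Slc7a5. In the block 25 to 33 its 6 libraries held 12.1 to 14.9 TPM (median 13.2), and in the block 48 to 54 its 4 libraries held 6.27 to 10.3 TPM (median 7.52), with no overlap. The difference of -0.71 ± 0.14 on the log2 scale passed the test (limma, adjusted p = 0.0121; -0.74 with adjusted p = 0.00268 after scaling), where 0.616% of all genes tested were lower, or 1.10% after scaling. Slc38a2 went the same way, from 163 to 239 TPM to 114 to 155 TPM, at -0.56 (adjusted p = 0.217) and, after scaling, at -0.60 (adjusted p = 0.0305). The other 5 members lay between -0.05 and -0.26. In GF aCD3, with 3 libraries in each block, the same contrast was not called for Slc7a5 (-0.44 ± 0.19, adjusted p = 0.428; -0.47 after scaling) or Slc38a2 (-0.13, adjusted p = 0.897). Against SPF isotype, Slc38a2 was higher in the first block alone (0.60 ± 0.18, adjusted p = 0.0415; 6.56% of genes were higher), and not past the test after scaling (0.46, adjusted p = 0.0535). Slc7a5 in the second block was at -0.47 ± 0.14 (adjusted p = 0.0740) and passed the test after scaling, at -0.63 (adjusted p = 0.00947), where 1.01% of genes were lower. The summed B and plasma cell markers were 17.2 to 115 TPM in the first block and 11.3 to 26.7 TPM in the second, beside 96.5 to 272.9 TPM in SPF isotype. Stromal markers summed to 0.492 to 1.70 TPM in the first block and 0.661 to 3.06 TPM in the second, beside 4.69 to 42.7 TPM in SPF isotype, with no overlap. The part of these cells in the differences was not tested.

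The aCD3 difference was also computed within each block. For Slc38a2 it was -0.66 ± 0.23 in the first block and -0.23 ± 0.24 in the second, for Slc3a2 -0.32 ± 0.17 and -0.26 ± 0.18, and for Slc38a1 -0.26 ± 0.19 and -0.26 ± 0.20. After scaling these were -0.49 and -0.06 for Slc38a2, -0.15 and -0.08 for Slc3a2, and -0.09 in both blocks for Slc38a1. No member passed the test in either block (limma as deposited, lowest adjusted p = 0.0928), nor did any of the 12182 genes, of which 3414 and 1530 had an unadjusted p under 0.05 in the first and second block. Slc7a5 differed by -0.32 ± 0.17 and -0.04 ± 0.17, or by -0.15 and 0.11 after scaling.

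**Figure D5:**
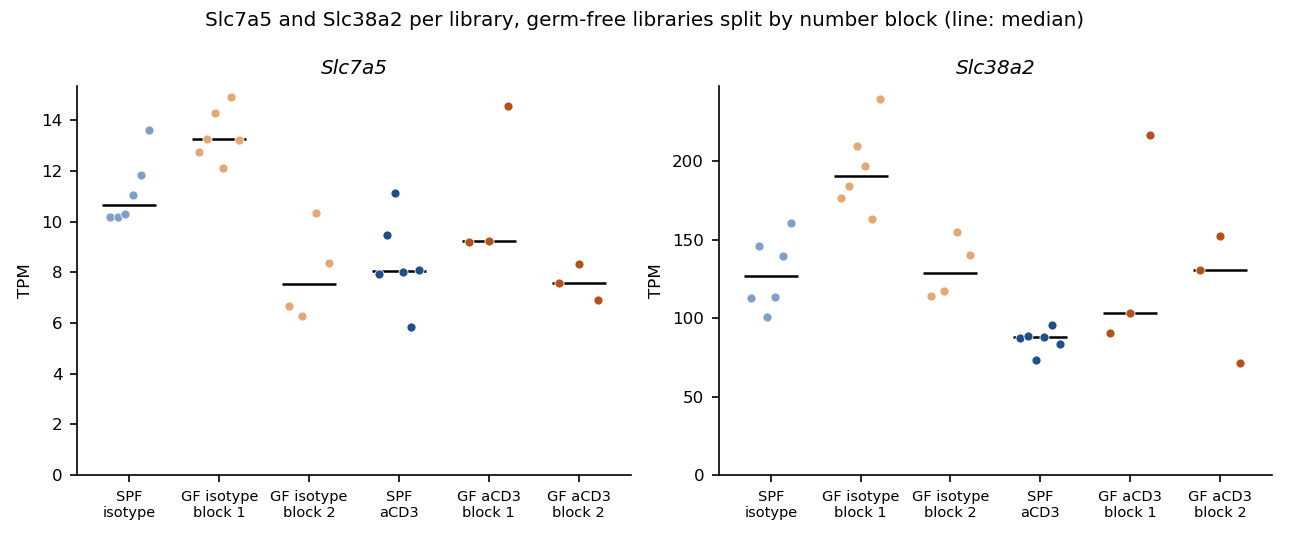
TPM of Slc7a5 (left) and Slc38a2 (right) in each library, with GF libraries split by the number block in their column names (block 1, 25 to 33; block 2, 48 to 54) and the median as a line. In GF isotype, all 6 block 1 libraries lie above all 4 block 2 libraries for both genes.

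Between the aCD3 groups, which shares its SPF aCD3 libraries with the comparison within SPF, 4 of 7 members were higher in GF and 0 lower, where 48.9% of all genes tested were higher and 4.46% lower. The GF values were uneven: Slc3a2 stood at 188 to 223 TPM in F1, M3 and M4, the libraries with low Lag3, and at 109, 140 and 134 TPM in M5, M1 and M2, beside 110 to 129 TPM in SPF aCD3. Myeloid markers summed to 57.7 to 106 TPM in SPF aCD3 and to 9.02 to 59.4 TPM in GF aCD3, and their part in the differences was not tested. Slc38a1 was higher in GF by 0.75 ± 0.15 on the log2 scale (limma, adjusted p = 0.000743), with every GF aCD3 library above every SPF aCD3 library, as for 12.2% of all genes. After dividing by the size factors, the lowest GF library (M5, 22.5) fell just below the highest SPF library (22.7). Slc7a1 was higher by 0.72 ± 0.15 (adjusted p = 0.000775), with 5 of 6 GF libraries above all SPF libraries; it stood at 8.35, 11.2 and 10.6 TPM in M5, M1 and M2 and between 11.6 and 17.3 TPM in M4, F1 and M3. Slc3a2 was higher by 0.46 ± 0.13 (limma, adjusted p = 0.00627), and by 0.05 after scaling (adjusted p = 0.684). Slc7a6 was higher by 0.32 ± 0.11 (adjusted p = 0.0181), which is below the shift of the median gene, 0.34, and turned to -0.03 after scaling. The Slc7a6 call was lost without SPF aCD3 M2 or GF aCD3 M3, with adjusted p up to 0.0611. After scaling, Slc38a1 (0.35 ± 0.09, adjusted p = 0.00672) and Slc7a1 (0.36 ± 0.12, adjusted p = 0.0248) passed the test and the other 5 did not, where 15.8% of genes were higher and 17.0% lower.

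Slc43a1, below the filter of the main test, could be followed in recovered reads. It had 10, 11, 16, 18, 24 and 31 reads in the SPF aCD3 libraries and 0, 2, 6, 12, 12 and 25 reads in the GF aCD3 libraries, and 3 GF libraries lay below all SPF libraries. These 3, M3 (0 reads), M4 (2 reads) and F1 (6 reads), are the ones with low Lag3, and M1, M2 and M5 lay within the SPF aCD3 range. Limma-voom on recovered reads gave -2.41 ± 0.83 with adjusted p = 0.0268, where it called 18.1% of its genes lower. With 1 library at 0 and counts this small, that value depends on how low counts are modelled and is no bound.

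Whether the aCD3 difference itself depended on colonisation was tested as the difference of differences, which shares all 4 groups with the comparisons above. It passed the test for 0 of 7 members, where 3.48% of all genes did. Unadjusted p-values were under 0.05 for 2, Slc38a1 (0.70 ± 0.20, p = 0.00179, limma adjusted p = 0.0503) and Slc7a1 (0.66 ± 0.20, p = 0.00230, adjusted p = 0.0536), both in the direction of a smaller difference in GF. After scaling, Slc38a1 passed it (0.46 ± 0.12, adjusted p = 0.0231), where 11.7% of genes did, and limma-voom also called Slc38a1 (0.48, adjusted p = 0.0192). Over the leave-one-out fits as deposited, the limma adjusted p of Slc38a1 ran from 0.00627 to 0.149. Slc38a1 passed the test without SPF isotype F3 or without GF aCD3 M1, M2 or M5. M1, M2 and M5 are the GF aCD3 libraries with high Lag3, and F1, M3 and M4 had Lag3 within the GF isotype range. The part of this split in the difference of differences was not tested. The other 5 members had values between 0.05 and 0.28 as deposited, and the sign of Slc7a5, Slc1a5, Slc38a2 and Slc7a6 turned after scaling.

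In GF mice the wider lists gave few calls. After aCD3, 0 of 5 other plasma membrane transporters, 0 of 7 lysosomal carriers and 0 of 15 regulators passed the test, as did 1 of 36 genes of mTORC1 and its sensors (lower) and 3 of 30 enzymes (higher), beside the 7.08% of all genes. Sesn1 fell from 22.4 ± 4.43 to 13.7 ± 5.82 TPM (log2 fold change -0.74, limma, adjusted p = 0.0482; -0.59 after scaling). Psat1 rose from 9.65 ± 1.89 to 18.3 ± 8.68 TPM (0.69, adjusted p = 0.0482; 0.85 after scaling), and Bcat1 from 0.138 ± 0.0894 to 0.801 ± 0.676 TPM (0.57, adjusted p = 0.0484; 0.63 after scaling). Psat1 held 23.2 to 28.7 TPM in M1, M2 and M5 and 8.71 to 12.8 TPM in F1, M3 and M4, and Bcat1 1.17 to 1.68 and 0.117 to 0.369 TPM. Sesn1 held 6.36 to 10.6 TPM in the former and 16.2 to 20.4 TPM in the latter. Hif1a was at 101 ± 12.6 and 137 ± 47.3 TPM and did not pass the test (0.37, adjusted p = 0.0862). The difference of differences was called for 0 of 5, 0 of 7, 3 of 36, 2 of 30 and 4 of 15 genes of these lists in the order transporters, lysosomal carriers, mTORC1, enzymes and regulators, beside 3.48% of all genes. After scaling the counts were 0, 0, 3, 4 and 6, beside 11.7%.

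Genes whose pattern over the 28 libraries was most like that of each member were listed by the root mean square difference of centred log2(TPM + 1), over 11318 genes. Slc7a5 was closest to Slc16a1 (0.153), a lactate carrier, and Ivns1abp (0.193), on both scales. Slc3a2 was closest to Rela (0.0952), a subunit of NF-kappaB, and Slc38a1 to Arih1 (0.0925), a ubiquitin ligase. Slc38a2 was closest to the immediate early gene Ier2 (0.148), Slc7a1 to Nmt2 (0.129), Slc7a6 to Cbx6 (0.119) and Slc1a5 to Scpep1 (0.156). After scaling, the closest gene was Mast4 for Slc7a1 (0.126) and Slc25a3 for Slc7a6 (0.114), and the same gene as before for the other 5 members. Among the tested members themselves, as deposited, the closest pair was Slc38a1 and Slc7a1 (0.164) and the farthest Slc1a5 and Slc38a2 (0.461). Pairs of members were not compared after scaling. These are descriptions over libraries that share groups and total, with no test.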

How the data were processed

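The authors deposited 1 table of TPM values, which per the file headers were made with HOMER's analyzeRepeats.pl over RefSeq transcripts of mm10, condensed to genes. Column names carry STAR's default suffix, though no aligner is named. Kit and molecule are labelled total RNA and polyA RNA respectively; strand use is not given in the sources used here. The submitters' processing notes name Cell Ranger 7.1.0, Seurat 5.1.0 and R 4.4.2, with no step for these values. The length column equals the genomic span in 99.24% of rows. A further 26 TPM columns match no sample here and were not used. Whole reads were recovered from TPM times length (100.0% of low values whole within 0.1) and used for depth and limma-voom.

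Limma 3.58.1 (R 4.3.3) was run on log2(TPM + 1) for 12182 genes with at least 1 TPM in at least 6 of 28 libraries, with group means, a sex term and empirical Bayes with a trend; p-values were adjusted by Benjamini-Hochberg per comparison, at 0.05. This scale understates changes of low genes. The fit was tested on simulated data. Number blocks come from the column names. Alternatives were pseudocounts, filters, scalings, limma-voom, array weights, model terms and leaving out each library; within-block fits, ratios and levels divided by size factors were added after seeing the data. Named list genes are the 3 highest and 3 lowest called in SPF, of which 1 is not reported here. Members and lists were chosen with earlier results of these data known. Python 3.11.15 with pandas 2.3.3, NumPy 2.4.6 and matplotlib 3.10.9 was used.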

Additional observations from a re-analysis of the deposited data

Results flagged for a closer look

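Of 36 sets of a gene and a group, 2 held a library far from the others of its group, where chance gives about 1.8. Slc7a5 stood at 14.573 TPM in GF aCD3 M3, against 6.892 to 9.215 TPM in the other 5 libraries, and M3 also held the highest acinar marker sum. Slc43a1 stood at 0.658 TPM in GF isotype F5, against 0.045 to 0.357 TPM in the other 9, at a level of 23 reads or fewer.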

How the results depend on the processing

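Over 434 values of single members under alternatives that kept all libraries, 350 kept direction and side of the threshold, 24 passed it anew, 10 lost it and 50 changed sign; over 980 values with 1 library left out, these were 943, 19, 2 and 16. The cause was not tested where no construction is named.

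Counts of members called changed as follows. In SPF aCD3 against SPF isotype, 4 became 3 by median of ratios and by limma-voom (Slc3a2 and Slc38a2 lost, Slc7a6 gained, higher). The count was also 3 without Rn45s and histone genes (Slc38a2 lost). It was 5 by quantile normalization (Slc7a6 gained, higher). Through Slc7a5 it was also 5 with array weights, the replicate block, the GF number block term or without SPF aCD3 F3. In GF aCD3 against GF isotype, array weights gave 3 in place of 0, and leaving out 1 library gave 0 to 3. In GF isotype against SPF isotype, array weights and the replicate block (0.59, limma adjusted p = 0.0270) gave 1 each in place of 0, Slc38a2. The names F4, F5, M4 and M5 occur in GF only and make up the second number block of GF isotype. The replicate block fit of this comparison therefore rests mainly on the first number block. In GF aCD3 against SPF aCD3, scaling by median of ratios, quantile normalization and limma-voom gave 2 each of the 7 tested members in place of 4; Slc7a6 was lost without Rn45s and histone genes and with array weights, Slc38a2 was gained without the sex term, with the GF number block term and with the replicate block (0.57, adjusted p = 0.0105), and Slc7a5 was gained with the GF number block term. The difference of differences had 0 calls; it had 2 with a pseudocount of 0.1, a TPM filter of 5 or a term for the GF number block, 1 with median of ratios, without Rn45s and histone genes, with quantile normalization, limma-voom, array weights or no sex term, and 0 to 2 with 1 library left out (2 without SPF isotype F3 or GF aCD3 M1, M2 or M5, 1 without GF isotype M2).

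Sign changes by setting were these (log2). In SPF aCD3 against SPF isotype, Slc1a5 went to 0.26 by median of ratios, 0.11 without Rn45s and histone genes, 0.14 by quantile normalization and 0.27 by limma-voom, Slc7a6 to 0.29, 0.17, 0.30 and 0.35 in that order, and Slc7a5 to 0.0056 by limma-voom. In GF aCD3 against GF isotype, Slc7a1 went to 0.035 by median of ratios, 0.025 by quantile normalization and 0.041 by limma-voom. In GF isotype against SPF isotype, the same 3 settings and array weights gave -0.11, -0.12, -0.11 and -0.0077 for Slc38a1 and -0.089, -0.12, -0.10 and -0.00116 for Slc7a1; the replicate block and the number block term gave 0.23 and 0.20 for Slc7a5 and 0.029 and 0.034 for Slc1a5. In GF aCD3 against SPF aCD3, median of ratios, quantile normalization and limma-voom gave -0.28, -0.29 and -0.31 for Slc7a5 (-0.0099 without Rn45s and histone genes), -0.21, -0.14 and -0.24 for Slc1a5, and -0.034, -0.054 and -0.055 for Slc7a6. In the difference of differences, median of ratios, removal of Rn45s and histone genes, quantile normalization and limma-voom gave -0.10, -0.0052, -0.074 and -0.087 for Slc7a5, -0.20, -0.092, -0.0053 and -0.20 for Slc38a2, and -0.11, -0.019, -0.12 and -0.14 for Slc7a6; Slc1a5 went to -0.019 by median of ratios and -0.024 by limma-voom, and Slc38a2 to -0.10 with array weights and -0.019 with the replicate block.

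With 1 library left out, sign changed within these ranges: Slc1a5 -0.013 to 0.12 and Slc7a6 -0.020 to 0.078 in GF aCD3 against GF isotype; Slc7a5 -0.088 to 0.037, Slc1a5 -0.089 to 0.027, Slc38a1 -0.068 to 0.097 and Slc7a1 -0.033 to 0.13 in GF isotype against SPF isotype; Slc7a5 -0.031 to 0.16 in GF aCD3 against SPF aCD3; and Slc38a2 -0.10 to 0.20 in the difference of differences.

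The labels do not say that replicate names pair the libraries. Deviations from the group mean over the genes tested correlated at -0.03 to 0.10 between same-named libraries of SPF isotype and SPF aCD3. For GF isotype and GF aCD3 they correlated at -0.21 to 0.20. Libraries of different names were not set beside these, so the values do not settle whether names pair animals. With the names as a replicate block, 5 members were called in SPF (Slc7a5 gained, adjusted p = 0.00975), 0 in GF aCD3 against GF isotype and 5 between the aCD3 groups. Depth limits Slc43a1 and Slc1a4.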
